A study of Mus musculus with 56 samples.

Results

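The 7 genes described here serve the making and carrying of cholesterol, and they were followed in mouse heart through a day of feeding at the usual or at the inverted time. They were picked by gene symbol from the heart expression table: Hmgcs1, Idi1, Fdft1, Sqle, Nsdhl and Dhcr7, which make cholesterol, and Stard4, which carries it between membranes. All 7 were listed among 22864 genes, and all 7 were among the 13893 genes that averaged 1 TPM or more and were tested (TPM is reads per base of exon scaled to the same sum for every library). None of the 7 is an uptake receptor, so the set covers synthesis and transport within the cell. The hearts came from C57BL/6J female mice, an inbred wild-type strain, aged 9 weeks and housed in groups, with lights on and off for 12 h each. After 7 days of free feeding on chow, food was offered for 7 days only by day (daytime-restricted feeding, DRF) or only by night (nighttime-restricted feeding, NRF, the reference for a nocturnal animal). Whole hearts were taken every 4 h at 7 zeitgeber times (ZT0 to ZT24, counted in hours from lights on), and polyA RNA gave 4 libraries for each of 14 groups and 56 in all. The labels do not say whether replicates are separate animals, so p-values measure only the spread between these libraries, which may be technical.

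Cholesterol is built from acetyl-CoA through mevalonate, isoprenoid units and squalene, and a long series of enzymes then trims lanosterol to cholesterol. When sterol in the membrane of the endoplasmic reticulum runs low, the factor SREBP2 (gene Srebf2) is released by cleavage, enters the nucleus and binds sterol regulatory elements in front of nearly all of these genes. In liver the pathway follows feeding and the clock. Heart muscle makes some cholesterol for its own membranes and takes up more from lipoproteins.

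The promoters of Hmgcs1, near the start of the pathway, and of Nsdhl, near its end, are shown because no annotated exon of either gene reaches into the window. RefSeq (GRCm38.p6) gave starts for 4 of the 7 genes, namely Hmgcs1, Idi1, Nsdhl and Dhcr7. Entries for Sqle, Fdft1 and Stard4 were not used here. The 250 bases before each start are printed 5′ to 3′, with matches on either strand to TCACNCCAC (a core form of the sterol regulatory element) and CCAAT (the box bound by NF-Y, a partner of SREBP) in capitals. On the opposite strand CCAAT reads ATTGG. The Hmgcs1 window is chr13:119690101-119690350 and the Nsdhl window chrX:72918271-72918520, both on the plus strand.
Hmgcs1: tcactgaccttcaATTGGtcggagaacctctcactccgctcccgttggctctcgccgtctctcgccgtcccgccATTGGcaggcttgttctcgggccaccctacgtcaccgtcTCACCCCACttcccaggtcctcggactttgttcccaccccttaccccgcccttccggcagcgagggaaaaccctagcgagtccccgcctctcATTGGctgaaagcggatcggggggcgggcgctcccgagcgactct
Nsdhl: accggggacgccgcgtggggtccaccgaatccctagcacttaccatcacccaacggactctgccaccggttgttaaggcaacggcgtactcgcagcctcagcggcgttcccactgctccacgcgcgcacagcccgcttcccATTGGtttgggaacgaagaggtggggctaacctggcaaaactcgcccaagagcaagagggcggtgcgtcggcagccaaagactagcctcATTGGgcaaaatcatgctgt
The Hmgcs1 window held 1 TCACNCCAC, whose first base lies 137 bases before the start, and 3 CCAAT boxes. The Nsdhl window held 0 and 2. TCACNCCAC was present in 1.05% of all 32851 promoter windows of this length, and in none of the other windows of the set. CCAAT was present in 33.8% of all windows, in the Idi1 window (2 matches) and in 1 of the 3 Dhcr7 windows. GGGCGG, the Sp1 box, was present in 32.7% of all windows and in at least 1 window of each of the 4 genes. CACGTG, the E-box that clock factors bind, was present in 6.02% of all windows and in 1 Dhcr7 window. In the printed windows no match to 1 of the 4 motifs overlapped a match to another. These are matches of letters and not measured binding.

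The libraries held 29274221 to 52906518 recovered reads, with a median of 37320612. The cardiomyocyte marker list, used to check the heart label, was expressed in full and summed to 24016 to 37992 TPM per library. Marker sums of other cells varied widely between libraries, from 95.1 to 5492 TPM for atrial cardiomyocytes, from 4.62 to 171 TPM for adipocytes, from 1686 to 67420 TPM for blood and from 0.258 to 70.2 TPM for hepatocytes. Of 56 libraries, 11 were nearer to another group than to their own over the 1000 genes that varied most between groups, and 4 had a correlation below 0 with their own group. These 4 were replicates 1 and 2 of DRF ZT4, replicate 2 of DRF ZT20 and replicate 1 of NRF ZT8. Calls on the 7 genes that changed without them are given with and without. In whole tissue, fewer cells of a type and less RNA per cell cannot be told apart.

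In the order of the pathway, Hmgcs1 encodes cytosolic HMG-CoA synthase, which makes HMG-CoA for the mevalonate pathway, and lies on chromosome 13 (119690379 to 119708260, plus strand; GRCm38, GENCODE M21). Idi1, the isomerase that sets the balance of the isoprenoid units, also lies on chromosome 13 (8885501 to 8892451, plus strand). Fdft1, squalene synthase, commits isoprenoids to sterols and lies on chromosome 14 (63145150 to 63179578, minus strand). Sqle, squalene epoxidase, carries out a rate-limiting step that needs oxygen and lies on chromosome 15 (59315077 to 59331192, plus strand). Nsdhl, a dehydrogenase that helps to remove the C4 methyl groups of the sterol, lies on chromosome X (72918557 to 72958514, plus strand). Dhcr7, which reduces 7-dehydrocholesterol to cholesterol, lies on chromosome 7 (143823145 to 143848410, plus strand). Stard4, a soluble sterol carrier, lies on chromosome 18 (33199355 to 33213862, minus strand).

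By level the genes spanned a wide range. Over the 56 libraries Fdft1 averaged 21.7 ± 3.04 TPM (SD, n = 56), Hmgcs1 15.9 ± 2.25, Stard4 8.25 ± 1.68, Nsdhl 4.51 ± 0.717, Dhcr7 3.52 ± 0.715, Idi1 2.88 ± 0.549 and Sqle 1.33 ± 0.465 TPM. Each gene exceeded the next in at least 47 of the 56 libraries. The closest neighbours were Dhcr7 above Idi1 (47 libraries) and Fdft1 above Hmgcs1 (52 libraries), while Hmgcs1 above Stard4, Stard4 above Nsdhl and Idi1 above Sqle held in 56, 56 and 56. Sqle rested on the fewest reads, 64 to 215 per library. The log2(TPM + 1) differences understate fold changes in genes at a few TPM, most of all in Sqle. They therefore do not rank the genes by fold change.

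**Figure D1:**
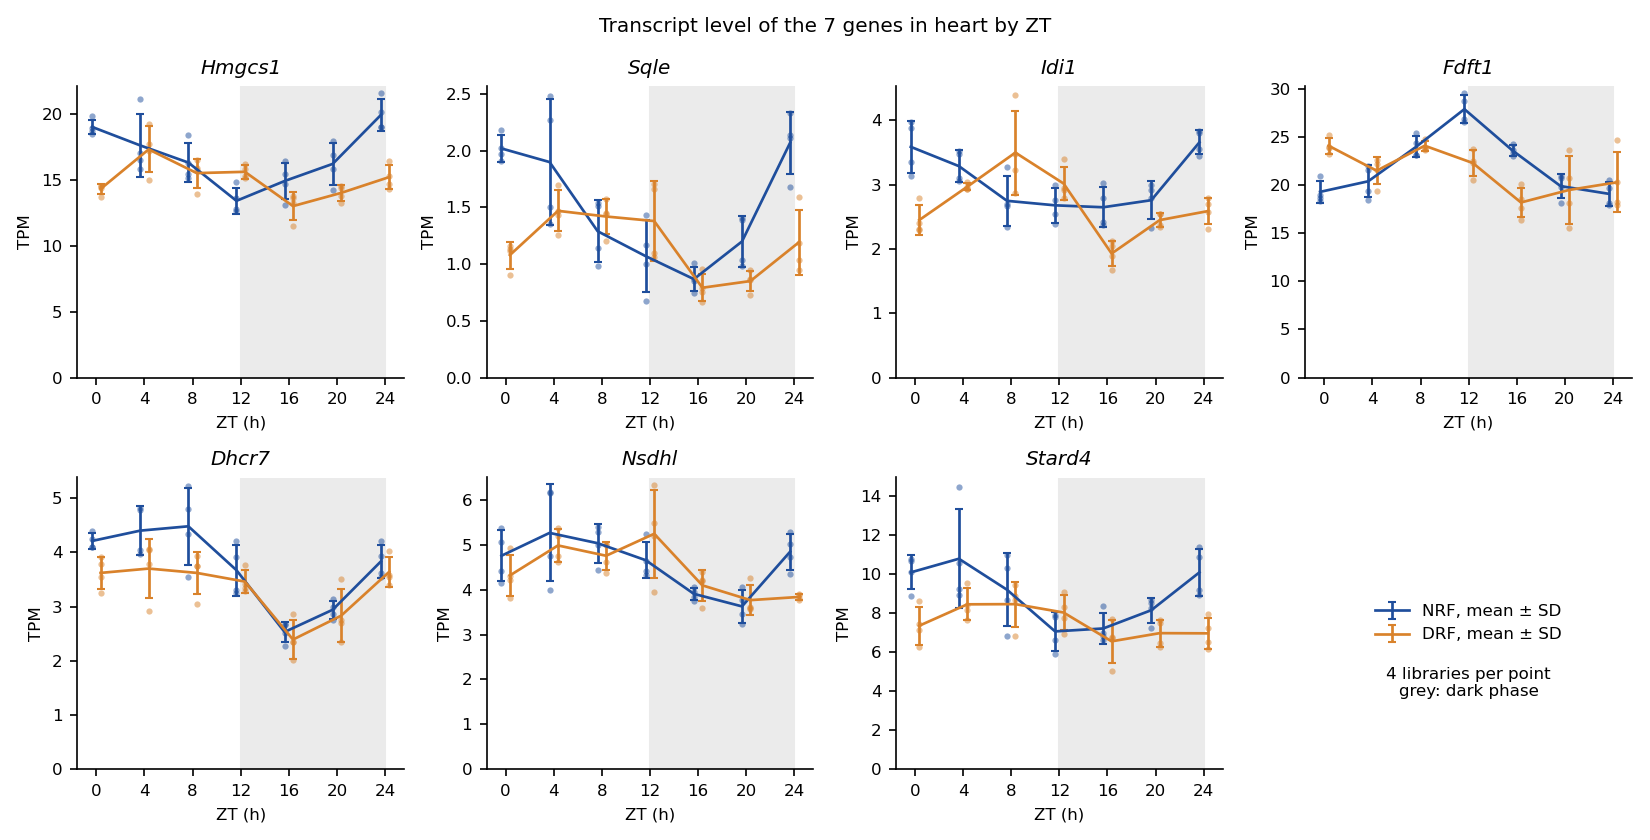
TPM (y axis) of each gene against ZT in hours (x axis), with points for single libraries and lines for means with SD of 4 libraries under NRF (blue) and DRF (orange). At ZT0 the 4 DRF libraries of Hmgcs1, Sqle, Idi1 and Stard4 lay below the 4 NRF libraries, and those of Fdft1 lay above.

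The first comparison asked whether the genes cycled under each regimen. Under NRF, the fitted peaks of 6 of the 7 genes fell in the light between ZT1.16 and ZT5.64. The fitted peaks of Hmgcs1, Idi1, Sqle and Stard4 came soon after the night meal ended, those of Dhcr7 and Nsdhl a few hours later, and that of Fdft1 at the end of the fast. A harmonic of 24 h passed limma's F test (adjusted p under 0.05) in all 7 genes under NRF and in all 7 under DRF. Of all genes tested, 37.2% were rhythmic under NRF, 32.2% under DRF and 17.5% under both.

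Hmgcs1 stands near the entry of the pathway. Under NRF its 4 libraries read 18.7, 18.9, 19.8 and 18.5 TPM at ZT0 and 14.8, 12.6, 13.6 and 12.8 TPM at ZT12. The groups did not overlap, and its fitted peak was at ZT1.16 ± 0.591 h (SE) with an amplitude of 0.22 on the log2 scale (adjusted p = 1.25e-05). Under DRF the mean moved only between 13.0 TPM at ZT16 and 17.3 TPM at ZT4, and the fitted peak was at ZT5.85 ± 0.682 h (adjusted p = 0.00162, and 0.0524 on the deposited scale).

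Idi1 under NRF was highest at ZT24, with 3.55, 3.45, 3.83 and 3.81 TPM, and lowest at ZT16, with 2.42, 3.02, 2.79 and 2.37 TPM. Under DRF its highest group was ZT8, with 4.40, 3.48, 2.87 and 3.23 TPM, and its lowest was again ZT16, with 1.89, 2.12, 1.67 and 2.04 TPM. The groups did not overlap in either pair. Its peak was fitted at ZT1.43 ± 0.766 h under NRF (adjusted p = 0.000403) and at ZT6.89 ± 0.567 h under DRF (adjusted p = 0.000186). Idi1 was thus the gene whose high-to-low ratio of group means was larger under DRF (1.81) than under NRF (1.38), a difference of ratios that was not tested.

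Sqle had the widest swing of the set under NRF. Its libraries read 2.14, 1.68, 2.33 and 2.11 TPM at ZT24 against 0.746, 0.854, 1.01 and 0.865 TPM at ZT16, a ratio of means of 2.38. Every ZT24 library was above every ZT16 library. Under DRF the ratio of the highest to the lowest group mean was 1.85, from 1.47 TPM at ZT4 to 0.792 TPM at ZT16. The fitted peaks were ZT2.17 ± 0.528 h under NRF (adjusted p = 4.59e-06) and ZT6.52 ± 0.575 h under DRF (adjusted p = 0.000248).

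Fdft1, which feeds squalene to Sqle, kept a different time. Under NRF it was highest at ZT12, with 26.9, 29.6, 28.7 and 26.6 TPM, and lowest at ZT24, with 18.1, 20.5, 19.7 and 17.9 TPM. The groups were far apart, and the peak was fitted at ZT11.7 ± 0.410 h (adjusted p = 2.36e-08). Under DRF the group means ran from 18.2 TPM at ZT16 to 24.1 TPM at ZT0, and the peak was fitted at ZT6.01 ± 0.990 h (adjusted p = 0.0298). The DRF rhythm of Fdft1 was weakly held. Its adjusted p was 0.101 with libraries scaled by the median of ratios (each gene against its geometric mean), and 0.155 without ZT8, 0.242 without ZT16 and 0.0637 without ZT20. It was also lost without any of 6 single libraries (replicates 2, 3 and 4 of ZT16, 2 and 3 of ZT20 and 1 of ZT8 under DRF), with adjusted p from 0.0506 to 0.0683.

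The late enzymes moved less in time. Dhcr7 under NRF was highest at ZT8, with 3.55, 4.80, 4.33 and 5.22 TPM, and lowest at ZT16, with 2.27, 2.52, 2.67 and 2.66 TPM. Under DRF it was again lowest at ZT16, with 2.86, 2.01, 2.35 and 2.34 TPM. Its peaks were ZT5.11 ± 0.402 h under NRF (adjusted p = 9.11e-07) and ZT4.83 ± 0.649 h under DRF (adjusted p = 0.000760). Without ZT16 the DRF rhythm of Dhcr7 had an adjusted p of 0.0753.

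Nsdhl was lowest at ZT20 under both regimens, with 3.23, 3.78, 4.07 and 3.45 TPM under NRF and 3.58, 3.62, 3.60 and 4.26 TPM under DRF. The highest groups were ZT4 under NRF (5.27 ± 1.08 TPM, SD, n = 4) and ZT12 under DRF (5.25 ± 0.980 TPM), and in both the spread between libraries was the widest for this gene. Its peaks were ZT5.64 ± 0.647 h under NRF (adjusted p = 0.000691) and ZT8.36 ± 0.757 h under DRF (adjusted p = 0.00186).

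Stard4 under NRF ran from 10.8 ± 2.55 TPM (SD, n = 4) at ZT4 to 7.07 ± 0.981 TPM at ZT12. At ZT4 replicate 4 of NRF reached 14.5 TPM, against 8.95, 10.6 and 9.23 TPM in the others. Under DRF it ran from 6.56 ± 1.11 TPM at ZT16 to 8.47 ± 1.15 TPM at ZT8. The peaks were ZT2.75 ± 0.641 h under NRF (adjusted p = 0.000111) and ZT6.96 ± 0.879 h under DRF (adjusted p = 0.0121). Without the 4 libraries named above the DRF rhythm of Stard4 had an adjusted p of 0.0573.

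The second comparison asked how far the daily course moved with the meal, which had been moved by 12 h. It moved by less. Hmgcs1 peaked later under DRF by 4.69 h (95% interval 2.92 to 6.46), Sqle by 4.34 h (2.81 to 5.87), Idi1 by 5.46 h (3.59 to 7.32) and Stard4 by 4.22 h (2.08 to 6.35). The fitted peak of Fdft1 was earlier, a shift of -5.73 h (-7.83 to -3.63). Under DRF, though, Fdft1 averaged 24.1 TPM at ZT0, 21.5 TPM at ZT4 and 24.1 TPM at ZT8. Its interval takes a cosine as given and leaves this dip out. Dhcr7 moved by -0.280 h (-1.78 to 1.22), and Nsdhl by 2.71 h (0.761 to 4.66). A rhythm under both regimens with a later peak under DRF was thus found in 5 of 7 genes, against 6.03% of all genes tested. Most of that gap lies in being rhythmic under both. Of the 2430 genes rhythmic under both, 838 had a later fitted peak under DRF. The 5 include Nsdhl, whose difference in rhythm was not called.

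The rhythm as a whole, peak and amplitude together, differed between regimens in 5 of 7 genes, against 27.5% of all genes tested (limma F test of the interaction). These were Hmgcs1 (adjusted p = 0.000171), Sqle (4.55e-05), Idi1 (8.31e-05), Fdft1 (5.75e-05) and Stard4 (0.00313). It was not called for Nsdhl (adjusted p = 0.0842) or Dhcr7 (0.393). The call for Nsdhl was not settled, since it passed with an adjusted p of 0.0101 under median-of-ratios scaling. Without ZT12 the count was 3 of 7, with Hmgcs1 at an adjusted p of 0.0504 and Stard4 at 0.123.

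A curve that followed the food would be the NRF curve moved by 12 h. All 7 genes departed from it, against 41.3% of all genes tested, with adjusted p from 1.45e-10 for Dhcr7 to 1.80e-05 for Stard4. This held under every alternative run, with 7 of 7 in each. For Hmgcs1, Sqle, Idi1, Fdft1 and Stard4 the DRF course thus differed by test both from the NRF course and from that course moved by 12 h. Of 75 alternatives, the difference from the NRF course held in 74 for Hmgcs1 and in 73 for Stard4.

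**Figure D2:**
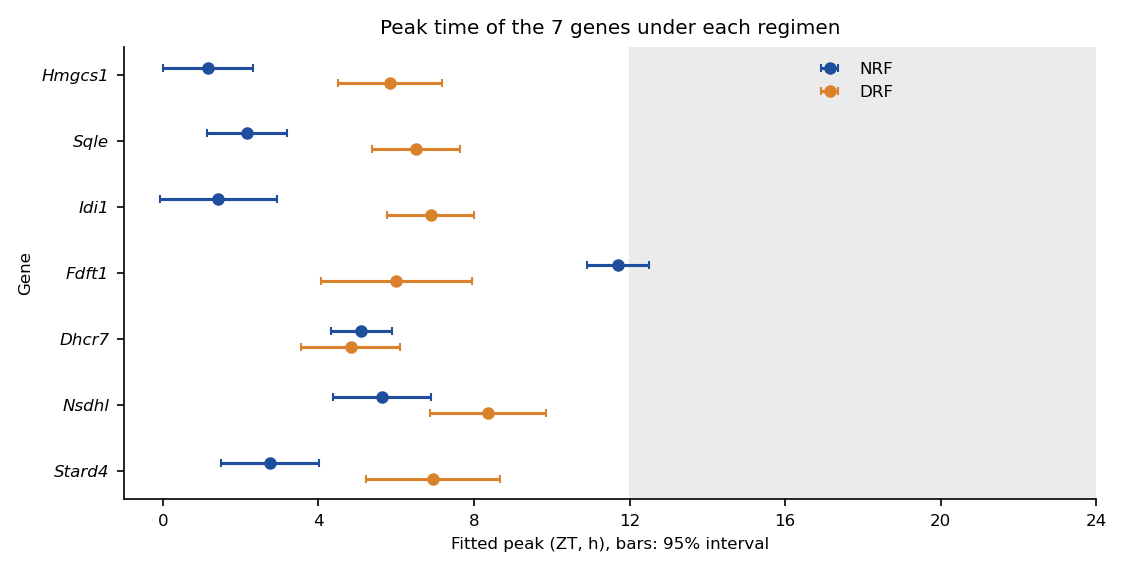
Fitted peak time in ZT hours (x axis) of the 7 genes, all rhythmic under both regimens, under NRF (blue) and DRF (orange), with bars for 95% intervals. The DRF peaks of the 7 genes lie between ZT4.83 and ZT8.36, while the NRF peaks run from ZT1.16 to ZT11.7.

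The third comparison set the regimens side by side at the same clock time. Most of the calls came at lights on, which is the end of the meal under NRF and the end of the fast under DRF. At ZT0, 4 genes were lower under DRF (Hmgcs1, Sqle, Idi1 and Stard4) and 1 was higher (Fdft1), 5 of 7 in all, against 11.5% of all genes tested (8.42% lower and 3.04% higher). The DRF libraries lay wholly below the NRF libraries in 5 genes and above them in 1, against 15.4% of all genes without overlap (10.3% with DRF below). The median difference of the 7 was -0.39 on the log2 scale, against -0.05 over all genes.

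Sqle at ZT0 read 1.13, 0.903, 1.16 and 1.12 TPM under DRF against 2.18, 2.02, 1.91 and 1.97 TPM under NRF. The DRF mean was 0.534 times the NRF mean, and the difference was -0.54 ± 0.11 on the log2 scale (SE, adjusted p = 0.000908). Hmgcs1 read 14.5, 14.5, 14.4 and 13.7 TPM under DRF against 18.7, 18.9, 19.8 and 18.5 TPM under NRF, a ratio of 0.752 (-0.39 ± 0.07, adjusted p = 0.000416). In both genes the groups were clearly apart.

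Idi1 read 2.79, 2.31, 2.30 and 2.41 TPM at ZT0 under DRF against 3.98, 3.88, 3.36 and 3.13 TPM under NRF, a ratio of 0.684 (-0.41 ± 0.08, adjusted p = 0.000547). Stard4 read 6.27, 7.43, 8.61 and 7.13 TPM under DRF against 10.8, 10.1, 10.7 and 8.87 TPM under NRF, a ratio of 0.729 (-0.41 ± 0.12, adjusted p = 0.0221). The highest DRF library of Stard4 was close to the lowest NRF library, and its call was lost without DRF replicate 1 (adjusted p = 0.103) or 4 (0.0544) or NRF replicate 1 (0.0744) or 3 (0.0737).

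Fdft1 went the other way at ZT0, with 23.2 to 25.2 TPM under DRF (mean 24.1 ± 0.825, SD, n = 4) against 18.4 to 20.9 TPM under NRF (19.3 ± 1.13). Its difference was 0.31 ± 0.08 (adjusted p = 0.00819). The groups did not overlap, and neither did those of Dhcr7, with 3.24 to 3.92 TPM under DRF and 4.09 to 4.39 TPM under NRF, but the difference of -0.17 ± 0.09 did not pass (adjusted p = 0.214). Nsdhl differed by -0.11 ± 0.09 (adjusted p = 0.477).

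ZT24 is the same clock time in another set of libraries. Hmgcs1 (-0.37 ± 0.07, adjusted p = 0.00114), Sqle (-0.49 ± 0.11, 0.00374), Idi1 (-0.38 ± 0.08, 0.00205) and Stard4 (-0.47 ± 0.12, 0.0109) were again lower under DRF, 4 of 7 against 8.80% of all genes (4.44% lower). The DRF libraries lay wholly below the NRF libraries in 5 genes, these 4 and Nsdhl (3.77 to 3.90 against 4.35 to 5.28 TPM; -0.27 ± 0.09, adjusted p = 0.0565), against 6.49% of all genes (13.5% without overlap in either direction). Fdft1 no longer differed by test at ZT24 (0.08 ± 0.08, adjusted p = 0.611). Its DRF libraries were spread from 17.9 to 24.7 TPM there. Without replicate number 3 of all groups none of the 7 passed at ZT24, with adjusted p of 0.0603 for Hmgcs1, 0.137 for Sqle, 0.0532 for Idi1 and 0.212 for Stard4. The call of Stard4 was also lost without NRF replicate 3 (adjusted p = 0.0598). Between ZT24 and ZT0 within a regimen, limma called 0 of 7 genes under DRF (0.425% of all genes were called) and 0 of 7 under NRF (0.0576%). At an unadjusted p under 0.05 there were 1 and 0 of 7, against 12.2% and 9.11% of all genes. The lowest adjusted p was 0.182, for Fdft1 under DRF, and without DRF ZT24 replicate 1 it was 0.0436.

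At ZT4 limma called 0 of 7 genes (0.446% of all genes were called), and 0 of 7 at ZT8 (0.353%). At an unadjusted p under 0.05 there were 2 of 7 at each, against 12.0% and 14.6% of all genes. The largest difference at ZT4 was -0.30 ± 0.12 in Stard4. At ZT8 it was 0.26 ± 0.08 in Idi1, higher under DRF (adjusted p = 0.122), and it passed under median-of-ratios scaling (0.31, adjusted p = 0.0397) and on the deposited scale (0.0377). That of Dhcr7 ran the other way, at -0.24 ± 0.09 (adjusted p = 0.198), and -0.33 with an adjusted p of 0.0312 without the 4 libraries named above (0.0408 without NRF ZT8 replicate 1 alone). At ZT12 Fdft1 alone was lower under DRF (7.62% of all genes were called, 6.35% lower), with 22.5, 23.8, 20.5 and 22.3 TPM against 26.9, 29.6, 28.7 and 26.6 TPM. Its difference was -0.32 ± 0.08 (adjusted p = 0.0118), and without DRF replicate 3 its adjusted p was 0.0689. Hmgcs1 read 15.1, 16.2, 15.3 and 15.8 TPM under DRF and 14.8, 12.6, 13.6 and 12.8 TPM under NRF at ZT12. The groups did not overlap in Hmgcs1 and Fdft1, 2 of 7 genes, against 13.5% of all genes (10.9% with DRF below). The difference of 0.20 ± 0.07 in Hmgcs1 had an adjusted p of 0.0835 (0.00958 under median-of-ratios scaling).

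At ZT16, 2 of 7 genes were lower under DRF (6.87% of all genes were called, 6.23% lower), namely Idi1 (-0.32 ± 0.08, adjusted p = 0.0135) and Fdft1 (-0.36 ± 0.08, adjusted p = 0.00448). Idi1 read 1.89, 2.12, 1.67 and 2.04 TPM under DRF against 2.42, 3.02, 2.79 and 2.37 TPM under NRF. The groups did not overlap in either gene, against 19.5% of all genes (17.8% with DRF below), yet the call of Idi1 was lost under median-of-ratios scaling (adjusted p = 0.0580), without DRF replicate 3 (0.0595) and without NRF replicate 2 (0.0718). At ZT20 limma called 0 of 7 genes, against 14.9% of all genes (2 at an unadjusted p under 0.05, against 30.5%). The largest difference was -0.25 ± 0.11 in Sqle (adjusted p = 0.123), and that of Hmgcs1, -0.20 ± 0.07 (adjusted p = 0.0695), passed without NRF replicate 3 (0.0300).

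Averaged over the day, 5 of 7 genes were lower under DRF, against 28.9% of all genes called (26.1% lower). The differences were -0.21 ± 0.05 for Stard4, -0.18 ± 0.04 for Sqle, -0.15 ± 0.03 for Hmgcs1, -0.14 ± 0.03 for Idi1 and -0.12 ± 0.03 for Dhcr7. Nsdhl and Fdft1 differed by -0.04 ± 0.04 (adjusted p = 0.422) and -0.04 ± 0.03 (adjusted p = 0.396). The median of all genes was itself -0.05, and it was 0.00 under median-of-ratios scaling. Over the 28 libraries of each regimen the endothelial list averaged (± SD) 531 ± 63.3 TPM in DRF hearts and 596 ± 69.6 TPM in NRF hearts, the macrophage list 275 ± 48.7 and 323 ± 47.4 TPM, and the cardiomyocyte list 29551 ± 1993 and 31267 ± 2084 TPM. Mitochondrial genes took 21.8% ± 1.47 of reads under DRF and 20.5% ± 1.57 under NRF. The part of these in the mean levels was not tested.

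At ZT0 the atrial list (Nppa, Myl7, Myl4, Sln, Bmp10) summed to 2292 to 5492 TPM under DRF and 343 to 4073 TPM under NRF, and the macrophage list to 229 to 328 TPM and 280 to 377 TPM. The hepatocyte list, led by Alb, summed to 0.872 to 10.1 TPM under DRF and 1.70 to 15.6 TPM under NRF, and the adipocyte list to 15.9 to 71.0 TPM and 10.8 to 48.3 TPM. The cardiomyocyte list summed to 27927 to 31071 TPM under DRF and 29255 to 37992 TPM under NRF. The groups overlapped in every marker list at ZT0, and the part of these cells in the differences at ZT0 was not tested. At ZT24 the atrial sums were 225 to 3139 TPM under DRF and 153 to 1389 TPM under NRF. The macrophage sums were 192 to 259 and 247 to 357 TPM. At both times the mean atrial sum was higher and the mean macrophage sum lower under DRF. Their part in the differences at ZT24 was not tested either.

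The fourth comparison matched the hearts by food, setting DRF at a given ZT against NRF 12 h later or earlier, so that both had spent the same time fed or fasted. In the first hours of feeding 2 genes were higher under DRF, and in the fast 6 were lower. Before feeding (DRF ZT0 against NRF ZT12) limma called 0 of 7 genes, against 6.21% of all genes (1 at an unadjusted p under 0.05, against 2785 of the 13893), and the largest difference was -0.21 ± 0.08 in Fdft1. At 4 h into feeding (DRF ZT4 against NRF ZT16), 2 of 7 were higher under DRF, against 6.41% of all genes (2.94% higher), with Dhcr7 at 0.41 ± 0.09 (adjusted p = 0.00217) and Sqle at 0.40 ± 0.11 (0.0207). Without the 4 libraries both missed the threshold (adjusted p = 0.0957 and 0.0925) and Hmgcs1 passed (0.30, adjusted p = 0.0369). Sqle was also lost without DRF replicate 2 (adjusted p = 0.0764), NRF replicate 1 (0.0786) or NRF replicate 2 (0.0523). Without DRF replicate 1 the count was 4, with Hmgcs1 (0.0330) and Nsdhl (0.0487) added.

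At 8 h into feeding (DRF ZT8 against NRF ZT20), 2 of 7 were higher under DRF, against 5.48% of all genes (2.57% higher), with Nsdhl at 0.32 ± 0.09 (adjusted p = 0.0325) and Fdft1 at 0.27 ± 0.08 (0.0385). The call of Fdft1 was lost without any single library of the 8, with adjusted p from 0.0519 to 0.124, and that of Nsdhl without 6 of the 8, from 0.0506 to 0.132. Without the 4 libraries Idi1 (0.25, adjusted p = 0.0547 with all) passed as well (0.0486). At the end of feeding (DRF ZT12 against NRF ZT0), Hmgcs1 (-0.27 ± 0.07, adjusted p = 0.0171) and Sqle (-0.35 ± 0.11, 0.0356) were lower under DRF, 2 of 7 against 9.45% of all genes (7.62% lower). Sqle was lost without any of 6 of the 8 libraries (adjusted p from 0.0511 to 0.146) and Hmgcs1 without any of 3 (from 0.0520 to 0.0624) and under median-of-ratios scaling (0.0855).

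The widest gap came 4 h into the fast, at DRF ZT16 against NRF ZT4, where 6 of 7 genes were lower under DRF, against 22.6% of all genes called and 19.1% lower. The median difference was -0.55, against -0.10 over all genes. Sqle read 0.790, 0.954, 0.670 and 0.753 TPM under DRF against 1.35 to 2.48 TPM under NRF (mean 1.90 ± 0.557, SD, n = 4), a difference of -0.68 ± 0.11 (adjusted p = 2.05e-05). Every DRF library was below every NRF library.

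Dhcr7 read 2.86, 2.01, 2.35 and 2.34 TPM under DRF against 4.05, 4.82, 3.97 and 4.78 TPM under NRF (-0.67 ± 0.09, adjusted p = 4.30e-07). Stard4 read 5.05, 7.71, 6.73 and 6.77 TPM against 8.95, 10.6, 9.23 and 14.5 TPM (-0.63 ± 0.12, adjusted p = 0.000216). Neither gene overlapped between the groups. Idi1 was lower, at -0.55 ± 0.08 (adjusted p = 2.73e-06), as was Hmgcs1, at -0.40 ± 0.07 (0.000120). These 5 calls held under every alternative run. Nsdhl was lower, at -0.28 ± 0.09 (adjusted p = 0.0226), a call lost under median-of-ratios scaling (0.120) and without DRF replicate 4 (0.106), NRF replicate 2 (0.125) or NRF replicate 4 (0.155). Fdft1 differed by -0.16 ± 0.08 (adjusted p = 0.155). The endothelial list summed to 464 to 520 TPM in these DRF hearts and 578 to 817 TPM in the NRF hearts, without overlap, and its part was not tested.

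At 8 h into the fast (DRF ZT20 against NRF ZT8), 6 of 7 genes were called lower under DRF, against 24.1% of all genes called and 20.9% lower. This count depended on the scaling. Dhcr7 read 2.70, 2.75, 2.35 and 3.50 TPM under DRF against 3.55, 4.80, 4.33 and 5.22 TPM under NRF (-0.52 ± 0.09, adjusted p = 6.93e-05), and its call held under every alternative. The others were Nsdhl (-0.34 ± 0.09), Stard4 (-0.34 ± 0.12), Fdft1 (-0.30 ± 0.08), Sqle (-0.30 ± 0.11) and Hmgcs1 (-0.20 ± 0.07). Under median-of-ratios scaling, which moved the median of all genes from -0.12 to 0, 2 of 7 were called, Dhcr7 and Nsdhl. Without the 4 libraries 4 of 7 were called, and Hmgcs1 (adjusted p = 0.133) and Fdft1 (0.0517) were lost. The count was 2 without DRF replicate 2, 3 without DRF replicate 1 and 3 without NRF replicate 4.

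**Figure D3:**
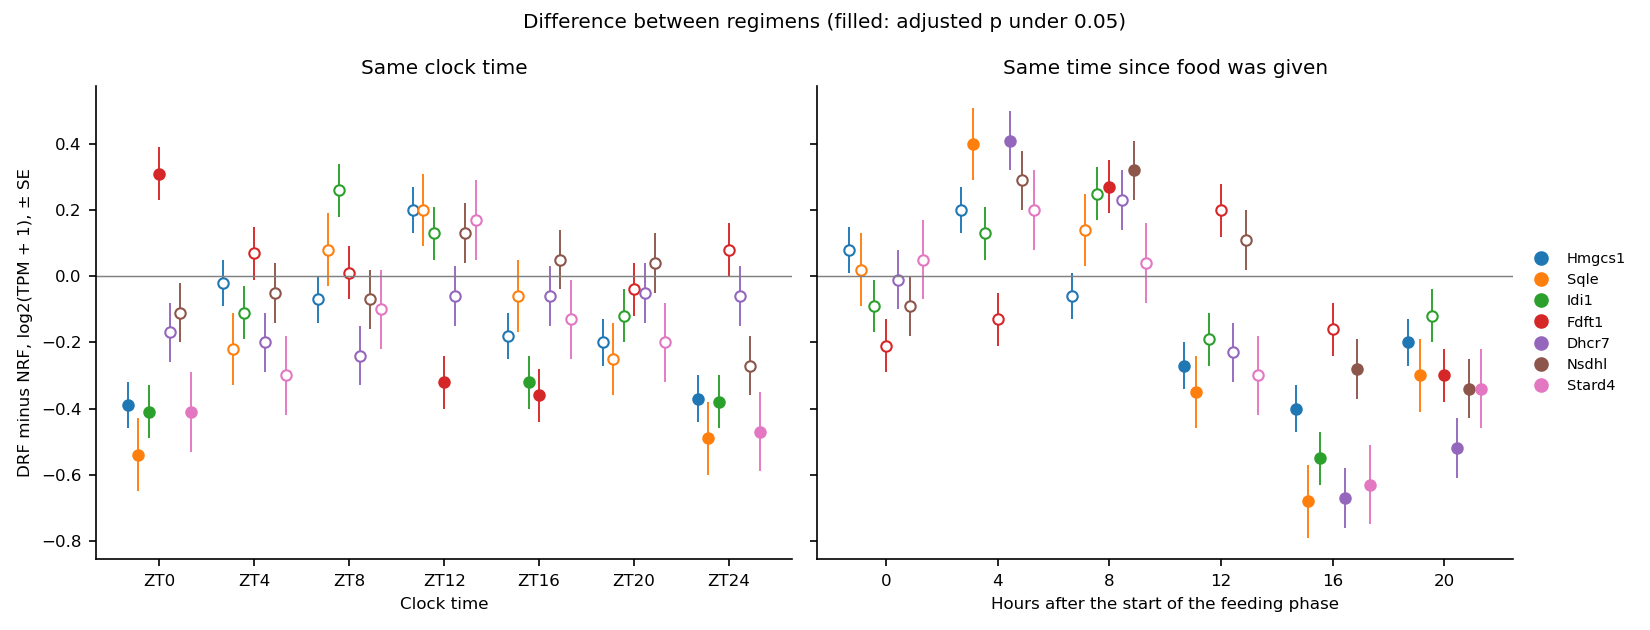
Difference between regimens, DRF minus NRF, in log2(TPM + 1) with SE (y axis), at each ZT (left) and at each number of hours after the start of the feeding phase (right), 1 colour per gene, with filled points for an adjusted p under 0.05. At the same clock time the filled points lie at ZT0, ZT12, ZT16 and ZT24, and 4 h into the fast 6 of 7 genes lie between -0.68 and -0.28.

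The onset of fasting and of feeding was then read within each regimen. Over the first 4 h of the fast 5 of 7 genes fell under DRF (ZT16 against ZT12), against 5.91% of all genes called (4.85% lower). Under NRF (ZT4 against ZT0) limma called 0 of 7, against 0.209% of all genes (0 at an unadjusted p under 0.05, against 13.3%). Under DRF Idi1 fell by 0.46 on the log2 scale (adjusted p = 0.000706), Sqle by 0.40 (0.0256), Dhcr7 by 0.40 (0.00750), Fdft1 by 0.28 (0.0305) and Hmgcs1 by 0.25 (0.0416). The call held for Idi1 under every alternative. Under median-of-ratios scaling 3 of 7 were called, and Fdft1 (adjusted p = 0.134) and Hmgcs1 (0.204) were lost. The count was 2 without DRF ZT12 replicate 2, DRF ZT16 replicate 3 or DRF ZT16 replicate 4, and 3 without DRF ZT16 replicate 2.

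The difference between the 2 fasts, tested directly, passed for Dhcr7 alone (-0.45 ± 0.13, adjusted p = 0.0466), against 2.18% of all genes (1.37% negative). It was negative in all 7 genes, from -0.14 in Hmgcs1 to -0.45 in Dhcr7. The call of Dhcr7 was lost without any of 12 of the 16 libraries, with adjusted p from 0.0560 to 0.121. Without the 4 libraries Fdft1 was added (-0.36, adjusted p = 0.0411). Without NRF ZT4 replicate 1 Fdft1 was also added (0.0423), and without NRF ZT4 replicate 3 Nsdhl (0.0239). After the start of feeding, Dhcr7 fell by 0.40 under NRF (ZT16 against ZT12, adjusted p = 0.00412), the 1 gene of 7 called there, against 8.44% of all genes (5.76% lower), and without the 4 libraries Fdft1 passed there too (-0.24, adjusted p = 0.0284). Under DRF (ZT4 against ZT0) limma called 0 of 7, against 2.31% of all genes (3 at an unadjusted p under 0.05, against 2223 of the 13893). Hmgcs1 differed by 0.26 ± 0.07 there (adjusted p = 0.0543), and by 0.35 (adjusted p = 0.00914) without the 4 libraries, and it also passed without DRF ZT4 replicate 1 alone (0.00899). The difference between the 2 feeding onsets passed limma's test in 0 of 7, against 0.554% of all genes (3 at an unadjusted p under 0.05, against 11.5%), and in Dhcr7 without DRF ZT4 replicate 4 (adjusted p = 0.0297).

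How alike the 7 courses were was described over the 14 group means. All but Fdft1 ran together, with correlations to the mean of the other 6 of 0.89 for Sqle, 0.87 for Stard4, 0.86 for Idi1, 0.82 for Dhcr7, 0.75 for Hmgcs1 and 0.73 for Nsdhl. Fdft1 stood at -0.04. The closest pairs were Sqle with Hmgcs1 and Sqle with Stard4, both at 0.93. These correlations rest on 14 points that share libraries and scaling. In z-scores the mean of the 6 genes without Fdft1, a split made after seeing the values, was highest in NRF hearts at ZT24 (1.27), ZT0 (1.23) and ZT4 (1.20) and lowest in DRF hearts at ZT16 (-1.50) and ZT20 (-1.06). Under NRF it was lowest at ZT16 (-0.90), which is the same clock time as the DRF low.

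**Figure D4:**
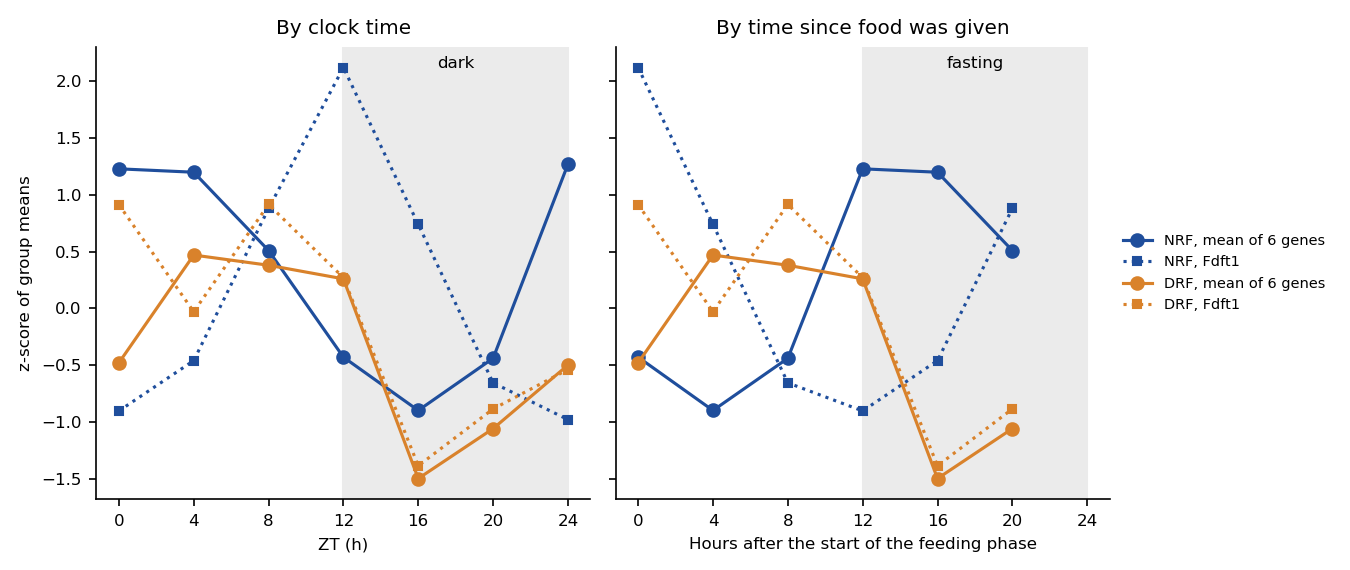
Mean z-score over the 14 groups (y axis) of the 6 genes without Fdft1 (solid) and of Fdft1 (dotted) under NRF (blue) and DRF (orange), by ZT in hours (left) and by hours after the start of the feeding phase (right). By clock time the mean of the 6 genes is lowest at ZT16 under both regimens (-0.90 and -1.50), though not every single gene is. By food time the DRF curve lies above the NRF curve at 4 h (0.47 and -0.90) and below it at 12 h (0.26 and 1.23) and at 16 h (-1.50 and 1.20).

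Among genes outside the sterol and fatty acid lists, the courses most like the mean of the 7 over the 14 groups were those of Actr3, a subunit of the actin-nucleating Arp2/3 complex (Pearson r = 0.98), Ssr1, a subunit of the translocon-associated protein complex (0.95), Rgs19, a regulator of G protein signalling (0.94), Aldh18a1, an enzyme of proline synthesis (0.94), and Bloc1s6, a subunit of a complex for lysosome-related organelles (0.94). They were the 5 highest among tested genes outside those lists, picked by this measure, so the values are a description. Within the lists Mvk, mevalonate kinase, came closest (0.91), and Srebf2 stood at 0.85.

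Of the 7 genes, 3 share exonic bases with another gene, and the library kit does not mark strand. Fdft1 shares 774 of its 4227 exonic bases with Ctsb (cathepsin B), which runs on the opposite strand and is far more abundant. The Ctsb group means lay between 179 and 198 TPM under NRF and between 163 and 179 TPM under DRF, and in NRF hearts Ctsb stood at 198 TPM at ZT12, 179 TPM at ZT24 and 196 TPM at ZT0. Where Fdft1 was called between regimens, Ctsb averaged 173 TPM under DRF and 196 TPM under NRF at ZT0 (Fdft1 higher under DRF), 179 and 198 TPM at ZT12 (Fdft1 lower) and 163 and 188 TPM at ZT16 (Fdft1 lower). The part of Ctsb reads in these values was not tested. Hmgcs1 shares 557 of 4594 exonic bases with the antisense transcript Gm48342, and Idi1 323 of 3505 with Gm48574. Reads in these stretches cannot be told apart, and how they were counted is not given in the sources used here.

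The rest of the pathway was read from lists of the other enzymes and regulators. Of 15 other cholesterol synthesis enzymes, 12 were tested. Fdps (0.0830 TPM), Lss (0.774 TPM) and Tm7sf2 (0.908 TPM) were below 1 TPM. Of the 12, 5 were rhythmic under NRF, 4 under DRF and 2 under both, and 4 differed in rhythm between regimens. Of all genes 37.2%, 32.2%, 17.5% and 27.5% did so, and the shares of the 12 under NRF (41.7%), under DRF (33.3%) and in the difference (33.3%) lay near them. Msmo1, the C4 methyl oxidase that acts before Nsdhl, passed under NRF (peak ZT1.03, adjusted p = 2.61e-06) but not under DRF (0.110), and its rhythm differed (adjusted p = 3.04e-05).

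Cyp51, the lanosterol demethylase, also passed under NRF (peak ZT2.21, adjusted p = 1.19e-05) and not under DRF (0.133), and its rhythm differed (adjusted p = 0.00652). Hsd17b7, a reductase that acts with Nsdhl, moved earlier, from ZT5.33 to ZT2.57 (adjusted p of the difference = 0.0240). At ZT0, 3 of the 12 were lower under DRF and 0 higher (8.42% of all genes were lower and 3.04% higher), among them Msmo1 (-0.45 ± 0.09, adjusted p = 0.000356) and Cyp51 (-0.26 ± 0.09, 0.0438).

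Mylip, an E3 ubiquitin ligase and a target of the sterol sensor LXR, was higher under DRF at ZT0 (31.3 ± 2.92 against 17.5 ± 1.33 TPM, SD, n = 4; 0.81, adjusted p = 5.36e-05). Its rhythm passed under NRF (peak ZT13.2, adjusted p = 3.58e-08) and not under DRF (0.810), and differed between them (2.92e-07). Of the 11 uptake and handling genes tested of 13, 7 passed the rhythm test under NRF (63.6%, against 37.2% of all genes), 6 under DRF (54.5%, against 32.2%) and 5 changed rhythm (45.5%, against 27.5%). Of 5 genes of sterol efflux and the LXR receptors, 3 passed under NRF, 3 under DRF and 3 changed rhythm, against the same shares of all genes.

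Of the 7 genes of SREBP control, 2 passed under NRF and 2 under DRF, and the interaction passed in 3 (Srebf2, Insig1 and Scap, which escorts SREBP). Of all genes 37.2%, 32.2% and 27.5% passed these tests, so the first 2 counts were not above the background. Srebf2 peaked at ZT2.43 under NRF (adjusted p = 4.33e-06) and ZT5.51 under DRF (0.0497), a shift of 3.08 h (95% interval 0.711 to 5.45, adjusted p of the difference = 0.00132), and was lower under DRF at ZT0 (15.6 ± 1.10 against 19.8 ± 1.02 TPM; -0.33 ± 0.09, adjusted p = 0.0134). Insig1, which holds SREBP in the endoplasmic reticulum, was rhythmic under NRF (peak ZT3.17, adjusted p = 0.00692) but not under DRF (0.160), and differed (0.00289). At ZT16 it was higher under DRF, with 16.3, 23.1, 14.1 and 16.8 TPM against 11.5, 15.7, 12.5 and 11.6 TPM (0.41, adjusted p = 0.0279). Srebf1, which drives fatty acid synthesis, was rhythmic under neither (adjusted p = 0.259 and 0.295).

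Of the 15 genes of fatty acid synthesis, 4 cycled by test under NRF and 11 under DRF, and 9 had a different rhythm, against 37.2%, 32.2% and 27.5% of all genes. The share under NRF (26.7%) was thus below the background. At ZT12, the end of the day meal, 6 were higher and 1 lower under DRF (7.62% of all genes were called), among them Elovl6 (7.18 ± 3.30 against 1.76 ± 0.632 TPM, adjusted p = 0.00621), Pnpla3 (6.04 ± 2.81 against 1.49 ± 0.699 TPM, 0.00206) and Acly (56.1 ± 15.0 against 30.4 ± 2.78 TPM, 0.00361), while Gpam was lower (66.3 ± 5.95 against 120 ± 26.7 TPM, 0.00434; SD, n = 4). Scd2 differed most at ZT20 (14.2 ± 1.36 against 27.8 ± 3.29 TPM, adjusted p = 0.000258). The adipocyte marker sum was also highest in DRF hearts at ZT12, with 48.9 to 160 TPM against 9.64 to 114 TPM under NRF, and its part in these values was not tested.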

How the data were processed

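PolyA RNA-seq was made from hearts of mice under DRF or NRF, and regimen, ZT and replicate were taken from the labels. The submitters' processing notes name HISAT2 2.0.5, featureCounts 1.5.0-p3 and genome build mm10, without their roles. The values deposited by the authors are named TPM, but they are another quantity: a library constant times log2(1 + scaled reads), divided by gene length. Whole reads were recovered from these steps with exon lengths of GENCODE M21 (all of 1192378 values tested were whole within 0.1 read), and 5 genes could not be resolved. In 857 genes, 820 of them on chromosomes 17 to 19, the annotation gave no length that made the reads whole, and a length that did was searched for. All 7 genes gave whole reads at their annotated length. Linear TPM was recomputed and tested as log2(TPM + 1) with a pseudocount of 1 TPM in genes that averaged 1 TPM or more (R 4.3.3, limma 3.58.1, eBayes with trend, Benjamini-Hochberg adjusted p under 0.05 over all genes tested). The design had assumed that the deposited values were linear TPM, and its tests were kept.

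Rhythm was an F test of cosine and sine terms of 24 h within a regimen (28 libraries), the difference in rhythm an F test of their interaction with regimen, and the departure from a 12-h shift a test that the DRF terms were the NRF terms with the sign turned. Other differences were contrasts in a model of 14 group means, adjusted within each contrast. Intervals of shifts are 95% (normal). The other genes named are Insig1, Srebf1 and Srebf2, the 6 genes of the lists that differed in rhythm with the largest single difference, and the 5 genes with the most similar course; Msmo1, Cyp51 and Hsd17b7 are named because they belong to a count. Some other genes of these lists are not reported here. The 7 genes and the lists were chosen with earlier results of these data known. No batch is given in the labels. The library protocol has no molecular identifiers, so reads are not all separate molecules. The fits and the read recovery were tested on simulated data. The alternatives were another pseudocount, no filter, median-of-ratios scaling, the deposited values as they stand, voom weights on recovered reads, a replicate block, ZT as a factor, and leaving out each ZT, replicate number and library. Leaving out the 4 libraries that correlated below 0 with their own group was added after the data were seen.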

Additional observations from a re-analysis of the deposited data

Results flagged for a closer look

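A difference in rhythm between the regimens, by the interaction test, flagged 5 genes by the shift of the fitted peak under DRF, at 4.69 h for Hmgcs1, 4.34 h for Sqle, 5.46 h for Idi1, -5.73 h for Fdft1 and 4.22 h for Stard4. The course of Dhcr7 over the first 4 h of the fast also differed between the regimens by test, by -0.45 on the log2 scale (adjusted p = 0.0466). This call held under 10 of 27 alternatives, with adjusted p from 0.0105 to 0.452, and was lost with the replicate block (0.0549), with no filter (0.0647) and without any of 12 of the 16 libraries.

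One library stood away from its group. Nsdhl in DRF ZT20 replicate 4 was at 4.26 TPM, while the other 3 libraries lay between 3.58 and 3.62 TPM. Of 98 groups of 4 libraries looked at in this way (7 genes in 14 groups), about 4.9 would be expected by chance.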

How the results depend on the processing

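Of 68 calls on single genes, 35 kept their side of the threshold under every alternative run. Among the differences in level 0 changed direction, while the rhythm calls and peak shifts were not checked for direction. The cause of the other changes was not tested. The departure from a 12-h shift stayed at 7 of 7 genes and the rhythm under NRF at 7 when any library or replicate number was left out.

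Of the counts out of 7, without ZT12 the difference in rhythm was 3. On the deposited scale the counts were 2 for the difference in fasting onset, 1 for that in feeding onset, 2 at ZT12, 1 at ZT8, 3 for the fasting onset under DRF, 2 for the feeding onset under DRF, 1 for DRF ZT20 against NRF ZT8 and 4 for DRF ZT8 against NRF ZT20. With median-of-ratios scaling they were 2 and 1 for the differences in fasting and feeding onset, 2 at ZT12, 1 at ZT16, 1 at ZT8, 3 for the fasting onset under DRF, 1 and 2 for the feeding onset under DRF and NRF, 2 for DRF ZT20 against NRF ZT8 and 4 for DRF ZT8 against NRF ZT20. That scaling moved the median of all genes from -0.10 to 0 at ZT16 and from -0.10 to 0.01 for DRF ZT16 against NRF ZT4. With no filter the counts were 0 for the difference in fasting onset, 3 for DRF ZT20 against NRF ZT8 and 0 for DRF ZT8 against NRF ZT20. A pseudocount of 0.1 TPM gave 1 for DRF ZT12 against NRF ZT0. Voom weights gave 3 for the difference in fasting onset, 2 at ZT12, 1 and 2 for the feeding onset under DRF and NRF and 4 for DRF ZT4 against NRF ZT16. Without the 4 libraries that stood apart, the counts were 2 for the difference in fasting onset, 1 at ZT8, 1 and 2 for the feeding onset under DRF and NRF and 1 for DRF ZT4 against NRF ZT16. With ZT as a factor, Stard4 missed the threshold for the rhythm under DRF (adjusted p = 0.0842) and for the difference (0.0546).

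When a replicate number or a single library was left out, the counts ran from 5 to 6 for the difference in rhythm, 5 to 7 for the rhythm under DRF, 4 to 6 for the mean level, 4 to 5 at ZT0, 0 to 1 at ZT8, at ZT12 and at ZT20, 0 to 2 at ZT16 and 0 to 5 at ZT24. They ran from 1 to 5 for the fasting onset under DRF, 0 to 1 for the feeding onset under DRF and under NRF, 0 to 2 and 0 to 1 for the differences in fasting and feeding onset, and 0 to 1 for ZT24 against ZT0 under DRF. Matched by food, they ran from 0 to 4 at DRF ZT4, 0 to 1 at DRF ZT8, 0 to 2 at DRF ZT12, 5 to 7 at DRF ZT16 and 1 to 6 at DRF ZT20.

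With the replicate number as a block the difference in fasting onset gave 0 genes, with Dhcr7 at an adjusted p of 0.0549, and 462 of 468 values kept their side. The deviations of libraries with the same number did not go together (median r = 0.01 over 364 pairs, against -0.00 over 1092 pairs with other numbers).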
